A study of Canis lupus familiaris with 8 samples.

Results

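Canine microRNAs (miRNAs) whose 4-digit number begins with 87, 88 or 89 were followed in a doxorubicin-resistant mammary tumour cell line, its sensitive parent line, and stem-like cells sorted from each. The array names 454 canine miRNAs, and 137 of them have such a number, chosen by name alone. The other 317 have other numbers and include families shared with human and mouse, such as let-7 and miR-200. The 137 run from miR-8789 to miR-8908 and use 120 different numbers. They are called dog-specific here as a working name for their numbering: no sequence of them or of a relative in another species was used. Each was read by 2 to 4 probes (284 probes in all, with 2 probes for 128 members).

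Star CSC are cells sorted from the line CMT-Star as CD44-positive, CD24-negative or low and aldehyde dehydrogenase-positive, and Star parent is unsorted CMT-Star. Stylo CSC were sorted in the same way from CMT-Stylo, and Stylo parent is that unsorted line, a doxorubicin-sensitive canine mammary tumour line. CMT-Star was derived from CMT-Stylo under rising doses of doxorubicin, a chemotherapy drug that binds DNA, up to 100 nM. All 4 groups therefore trace back to 1 line, and separate cultures for the 2 samples of a group are not mentioned in the labels. Errors and p-values here cover the spread among these samples alone, which may be technical. Per the labels, Cy3-labelled RNA of each sample went on a 1-colour array.

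MiRNAs are short RNAs that are cut from hairpin transcripts by DROSHA and DICER1 and guide Argonaute proteins to messenger RNAs that match their seed. The miRBase registry numbers families in the order in which they are registered, so a high number marks a late entry and says nothing of function. Letters after a number mark closely related mature sequences, as in miR-8904a and miR-8904b. No role of any single member is known to the sources used here, so their place in the RefSeq dog annotation (assembly UU_Cfam_GSD_1.0) is given where it names a neighbour. RefSeq listed a miRNA gene for 130 of the 137 members, and 48 members had an entry within the span of a protein-coding gene.

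The files of both Stylo parent samples held identical values and were counted as 1 sample, which leaves 7 arrays. Stylo CSC replicate 1 was alone on slide 2, with the other 6 arrays on slide 1. In the deposited value table, the columns of Stylo CSC replicate 1 and Stylo parent replicate 2 hold other values than the scanner files: 7 and 8 members differ there, against 0 in each of the other 6 columns. The scale factors, which set the overall brightness of an array, were 500 and 452 for Star CSC, 333 and 316 for Star parent, 212 and 307 for Stylo CSC, and 219 for Stylo parent. None of 8 epithelial marker miRNAs was well above background on any array, although mammary tumours usually arise from epithelium. Of the lists for other cell types, 2 of 7 haematopoietic miRNAs (miR-155 and miR-223) and 1 of 8 neural ones (miR-138a) were well above background on at least 1 array. No muscle (7), mesenchymal (5), endothelial (1) or liver (1) marker was. The summed scaled signal of the haematopoietic list ranged between 0.143 and 0.445 over the arrays. The part of other cell types in the results was not tested.

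Few dog-specific miRNAs gave a signal in these cells. A spot was taken as well above background by the scanner software's flag, a probe where over 50% of its spots were, and a miRNA where 1 or more of its probes were. By this measure 8 of the 137 members (5.84%) were well above background on at least 1 array, against 46 of the 317 other miRNAs (14.5%). On all 7 arrays, 1 member (miR-8904b) and 16 other miRNAs were. The share of members was below that of the other miRNAs on each array, at 4.38% and 3.65% against 13.6% and 12.0% for Star CSC, and at 2.92% against 9.15% for Stylo parent. Members held 5480 spots on each array, of which 2.19% to 4.51% were well above background. The 1000 negative control spots of an array gave 0% to 1.1%. These shares are descriptions of 7 arrays, with no test, and in RNA of whole samples fewer cells with a miRNA and less of it per cell cannot be told apart.

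**Figure D1:**
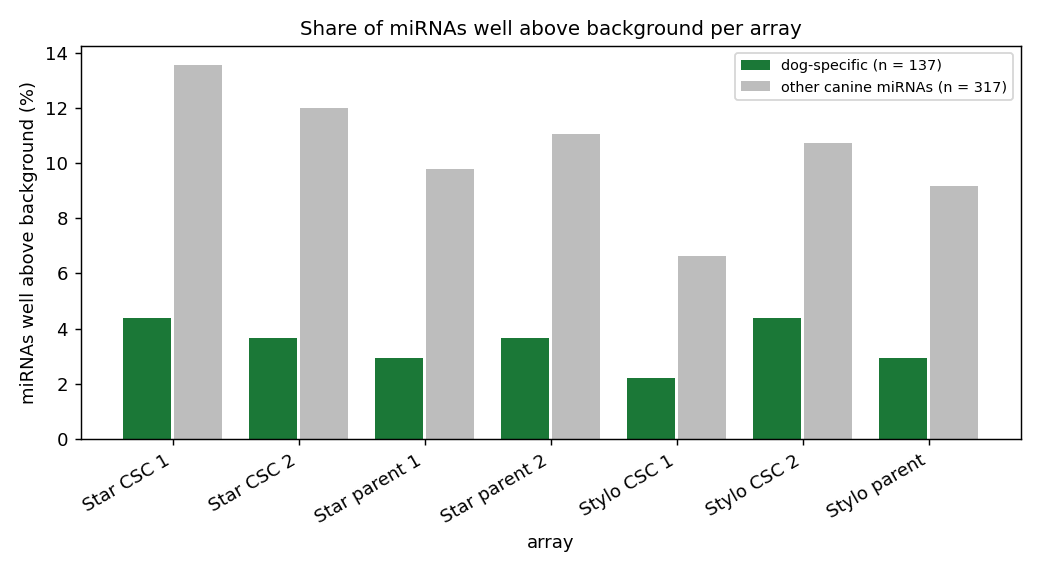
Share of miRNAs well above background (percent, vertical axis) on each of the 7 arrays, as green bars for the 137 dog-specific members and grey bars for the 317 other canine miRNAs. The green bars lie between 2.19% and 4.38% and the grey bars between 6.62% and 13.6%.

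The 8 members were miR-8799g, miR-8815, miR-8824, miR-8833, miR-8843, miR-8875, miR-8892 and miR-8904b. MiR-8824, miR-8843 and miR-8892 were well above background on all arrays but Stylo CSC replicate 1. MiR-8815 was so on both Star CSC arrays, Star parent replicate 2 and Stylo CSC replicate 1. MiR-8833 was so on Star CSC replicate 1 and Stylo CSC replicate 2, miR-8799g on Stylo CSC replicate 2 only, and miR-8875 on Stylo CSC replicate 1 only. In 4 of the 8 members a second probe was also well above background on the same array. No member spot was saturated.

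The software's own detection call, which takes a miRNA's probes together, was wider. It marked 18 members (13.1%) and 59 other miRNAs (18.6%) on at least 1 array. The 10 members it added were miR-8794, miR-8798, miR-8799f, miR-8803, miR-8808, miR-8816, miR-8845, miR-8898, miR-8903 and miR-8906. MiR-8903, whose RefSeq gene lies within the span of DROSHA, the nuclear enzyme that starts miRNA processing, was marked on 6 arrays. MiR-8794 and miR-8803 were marked on 5 each. MiR-8803 lies within the span of CRTC1, a coactivator of CREB-driven transcription. MiR-8816 was marked on 2 arrays, as was miR-8845, which lies within the span of VSNL1, a neuronal calcium sensor. MiR-8798 (nearest protein-coding gene TMCO1), miR-8808 (nearest STRIT1), miR-8799f, miR-8898 (nearest WHAMM) and miR-8906 were each marked on 1. The deposited value table held a detected value for 17 of these 18, and miR-8906 was the exception. None of these 3 rules (well above background, software call, deposited table) marked the remaining 119 members on any array.

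**Figure D2:**
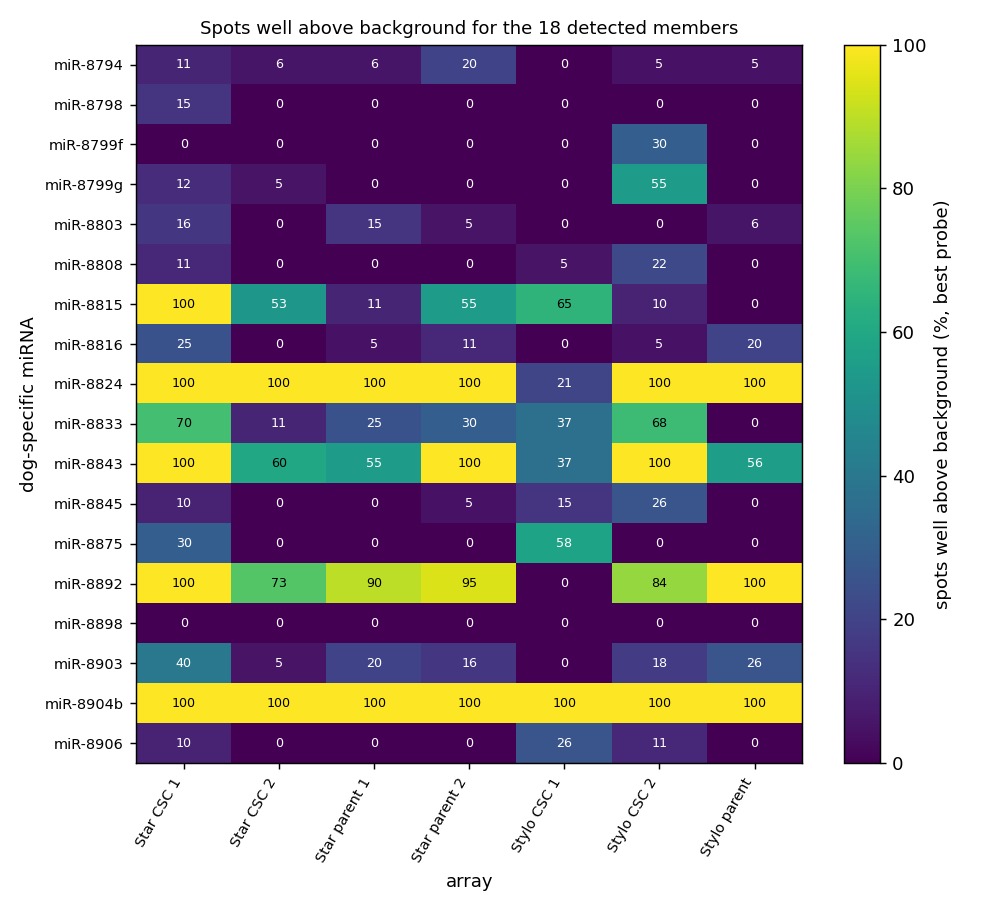
Percent of spots well above background for the best probe of each of the 18 members marked by any of the 3 rules (rows), on the 7 arrays (columns, Star CSC to the left and Stylo parent to the right). MiR-8904b stands at 100% in every column, while miR-8892 stands at 0% on Stylo CSC replicate 1.

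The 129 members that were never well above background filled the space around 0. Their summed intensities, in background-subtracted scanner units, ran from −16.9 to 33.4 with a median of −2.38, and 643 of the 903 values were at or below 0. MiR-8794, miR-8816 and miR-8903 had the highest mean scaled signals among them. MiR-8794 gave 32.3 and 25.2 in Star CSC, 24.2 and 29.0 in Star parent, 15.8 and 29.5 in Stylo CSC, and 29.4 in Stylo parent. MiR-8816 ranged between 18.1 and 33.4, and miR-8903 between 9.92 and 25.6. MiR-8867, miR-8799b and miR-8825 were the lowest, with every value between −16.9 and −5.32. Detection within a shared number was mixed or absent. Of the 7 members numbered 8799, only miR-8799g was well above background, and none of the 7 numbered 8908 was marked by any of the 3 rules. MiR-8904a lay between −7.34 and −1.22 on all arrays, and its namesake miR-8904b was well above background on each.

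MiR-8904b had summed intensities of 340 and 310 in Star CSC and 218 and 232 in Star parent. The Stylo CSC arrays gave 482 and 201, and Stylo parent gave 179. On slide 1 the order was Star CSC, Star parent, Stylo CSC and Stylo parent, which was also the order of the scale factors. After scaling that order was gone. Scaled log2 signals were −0.56 and −0.54 in Star CSC, −0.61 and −0.44 in Star parent, 1.19 and −0.61 in Stylo CSC, and −0.29 in Stylo parent. The slide 2 array thus stood 2.40-fold above its replicate in intensity and 1.80 above it in scaled log2 signal. Both probes showed it, at 67.3 ± 5.65 against 20.1 ± 6.32 and at 415 ± 17.1 against 181 ± 15.7 (mean ± SD over spots of 1 array, replicate 1 against replicate 2). The deposited column for the same sample did not: its recovered total was 50.7, against 56.9 for replicate 2. In the 8 deposited columns, scaled alike, miR-8904b stayed between −0.59 and −0.13.

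MiR-8892, whose nearest RefSeq protein-coding gene is C1H19orf54, gave intensities of 50.9 and 44.9 in Star CSC and 48.6 and 48.8 in Star parent. Stylo CSC gave 15.6 and 43.9, and Stylo parent gave 50.5. The slide 2 array was low and the other 6 lay close together. The highest value on slide 1 was 1.16 times the lowest. That was the smallest such ratio among the 46 tested miRNAs, whose median was 2.55, while the scale factors of the same arrays spanned 2.29-fold. MiR-8824, whose nearest protein-coding gene CCDC115 is known for assembly of the vacuolar proton pump, came next at 1.46, with 1 tested miRNA below it.

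In intensity, miR-8824 was higher in Star CSC than in all other groups. It gave 76.9 and 74.4 in Star CSC, 54.4 and 59.7 in Star parent, 30.8 and 56.3 in Stylo CSC, and 52.7 in Stylo parent. The Star CSC arrays also had the highest scale factors. After scaling on slide 1, Star CSC had the lowest mean of miR-8824, at −1.96. Star parent and Stylo CSC stood at −1.74 and Stylo parent at −1.54. MiR-8815, with a pair of RefSeq entries next to KIF20B, a mitotic kinesin, and IDE, the insulin-degrading enzyme, gave 55.8 and 41.8 in Star CSC, 30.5 and 36.7 in Star parent, 46.9 and 28.6 in Stylo CSC, and 14.6 in Stylo parent, where no spot was well above background. That array therefore sets no exact level for miR-8815.

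MiR-8843, within a long non-coding RNA whose nearest protein-coding gene is the histone demethylase KDM3A, gave 56.1 and 44.3 in Star CSC and 37.5 and 45.9 in Star parent. Stylo CSC gave 26.2 and 71.7, and Stylo parent gave 36.5. The Stylo CSC replicates were the lowest and the highest arrays, so that this group spanned all others. On the high array the spots of its brighter probe also varied most, at 49.2 ± 17.3, against SDs of 3.52 to 10.3 on the other arrays. The spots of miR-8799g on the same array were also uneven, at 20.0 ± 13.2 for its brighter probe.

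**Figure D3:**
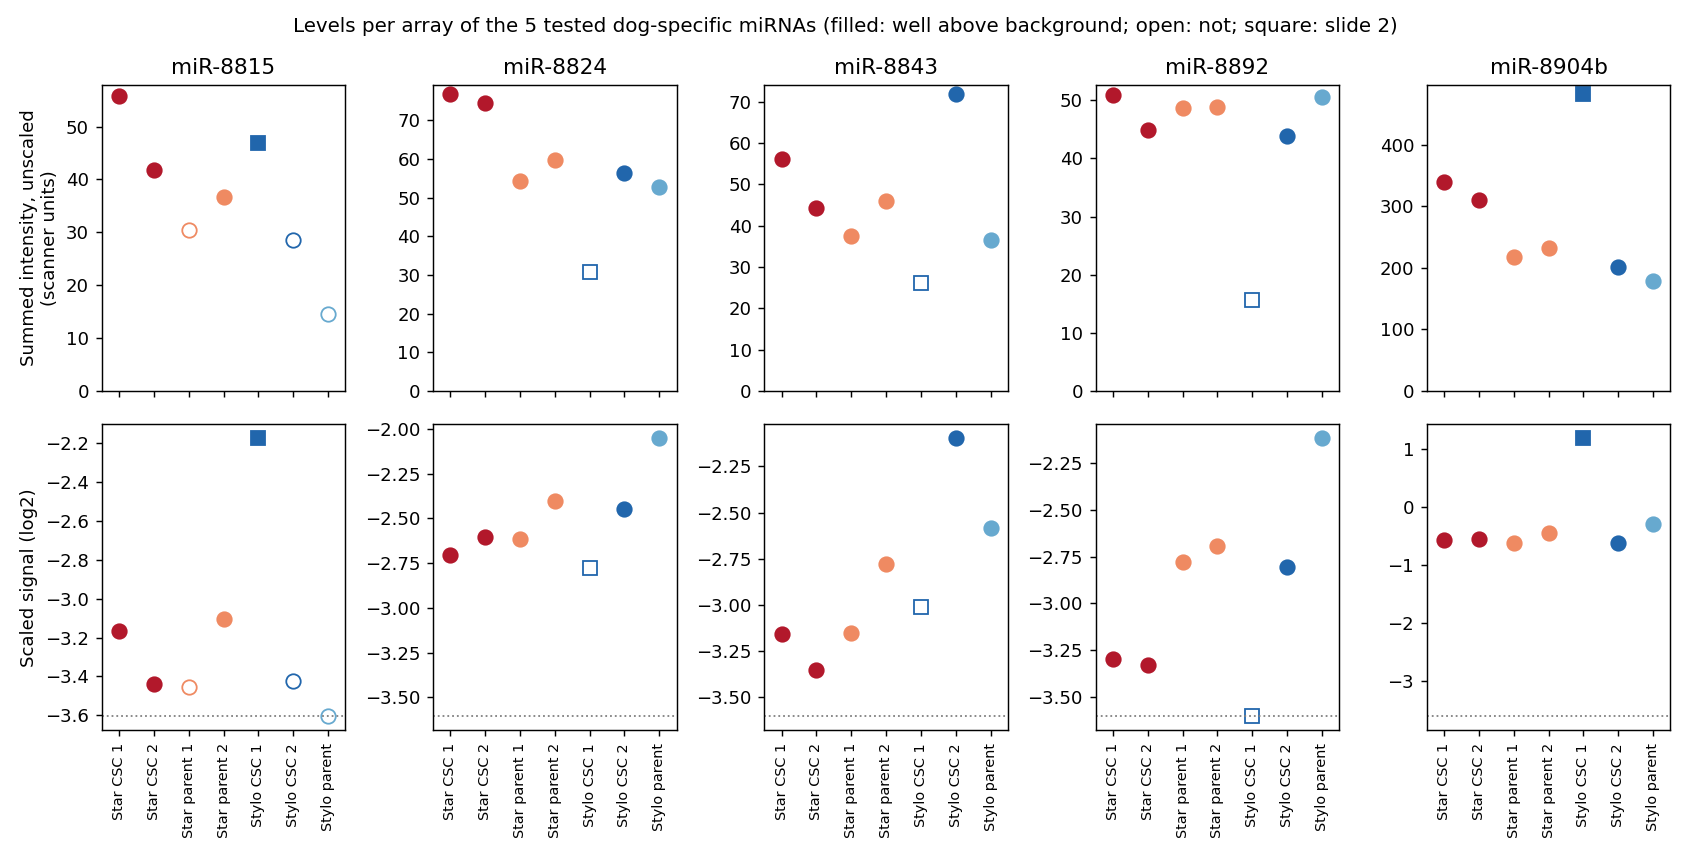
Summed intensity in scanner units (top) and scaled log2 signal (bottom) of the 5 tested members on each array, with filled symbols where the miRNA was well above background and a square for the slide 2 array. The dotted line is the common floor at −3.61. MiR-8892 is level on slide 1 in the top row and lowest in Star CSC among the slide 1 arrays in the bottom row.

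The 3 members that were bright on 1 or 2 arrays were too dim to be tested over all 7. MiR-8833 gave 49.5 and 28.6 in Star CSC, 23.3 and 30.4 in Star parent, 27.5 and 53.6 in Stylo CSC, and 15.4 in Stylo parent. MiR-8799g, which lies within the span of the pigmentation gene OCA2, gave 21.1 and 16.6 in Star CSC, 9.0 and 9.66 in Star parent, 3.85 and 32.2 in Stylo CSC, and 5.99 in Stylo parent. MiR-8875, whose nearest protein-coding gene ARHGAP17 encodes a GTPase-activating protein, gave 26.8 and 25.4 in Star CSC, 12.5 and 16.9 in Star parent, 30.4 and 10.6 in Stylo CSC, and 2.54 in Stylo parent. In each of the 3 the replicates of Stylo CSC lay far apart, and Stylo parent was the lowest or the second lowest array. A group in which no array was well above background has only a bound, taken from the lowest signal that was well above background on each array. In Stylo CSC, miR-8833 was well above background on replicate 2 only, at a scaled log2 signal of −2.52. Replicate 1, at −2.94, was not. The mean of both stood 1.28-fold above the limit in Stylo parent, which is therefore no bound for the group. For miR-8875 and miR-8799g the Stylo CSC means stood 1.32-fold and 1.13-fold above the limit in Star CSC. In both, the other Stylo CSC array was at the common floor, so neither value is a bound for the group. Each of these 3 values rests on 1 measured Stylo CSC array of 2. For miR-8833 the Star CSC mean stood 1.01-fold above the limit in Star parent. Star CSC replicate 2 was at the common floor, so this is no bound either. The other comparisons of these members gave no bound above 1 or had both groups with a measured array.

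Tests were run on the 46 miRNAs measured well above background throughout at least 1 group, 5 of them members: miR-8815, miR-8824, miR-8843, miR-8892 and miR-8904b. These 5 passed because of a group in which they were measured, so their counts do not stand for the 137. The fit used scaled log2 signals of 7 arrays in limma, with 3 residual degrees of freedom and Benjamini-Hochberg adjustment over the 46. It asked whether CSC differ from the line they were sorted from, whether resistant differ from sensitive cells, and whether the CSC difference depends on resistance.

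In Star CSC against Star parent, 0 of the 5 members passed, with 2.17% of the 46 called. Log2 changes were −0.58 ± 0.29 (SE) for miR-8892, −0.29 ± 0.36 for miR-8843, −0.14 ± 0.16 for miR-8824, and −0.02 for both miR-8815 (SE 0.47) and miR-8904b (SE 0.64). The limma adjusted p-values lay between 0.383 and 1, and 0 members had an unadjusted p under 0.05. The median was −0.14 over the members and 0 over the 46. The 2 groups did not overlap for 2 members, miR-8843 and miR-8892, both lower in Star CSC, while 80.4% of the 46 did not overlap in one direction or the other. For miR-8904b the 95% interval ran from −1.80 to 1.76, so that a change in either direction was not detectable at this precision.

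In Stylo CSC against Stylo parent, 0 of 5 passed, again with 2.17% of the 46 called. MiR-8892 gave −1.09 ± 0.36 and miR-8824 −0.56 ± 0.20, both with an adjusted p of 0.295 in limma, and these were the 2 members with an unadjusted p under 0.05 (0.0389 and 0.0475). Neither was well above background on Stylo CSC replicate 1. Without that array the changes were −0.50 ± 0.04 for miR-8892 and −0.21 ± 0.09 for miR-8824 (limma adjusted p = 0.0127 and 0.147, with 34% of 50 miRNAs called). MiR-8815 gave 0.81 ± 0.58, miR-8904b 0.58 ± 0.79 and miR-8843 0.03 ± 0.45. Adjusted p-values ran from 0.295 to 1, and the median was 0.03 over the members and −0.25 over the 46. MiR-8815 was not well above background in Stylo parent, nor on Stylo CSC replicate 2, so its group difference has no firm bound. Stylo CSC replicate 1 alone was at least 1.88-fold above Stylo parent. The arrays of 3 members did not overlap (miR-8815 higher, miR-8824 and miR-8892 lower), with 50% of the 46 so. Stylo parent is 1 sample in this comparison.

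In Star parent against Stylo parent, 0 of 5 passed (2.17% of the 46 called, limma adjusted p between 0.381 and 0.902, 0 with an unadjusted p under 0.05). The values were −0.62 ± 0.36 for miR-8892, −0.46 ± 0.20 for miR-8824, −0.38 ± 0.45 for miR-8843 and −0.24 ± 0.79 for miR-8904b. MiR-8815 was not well above background in Stylo parent and allowed no bound above 1, so that its fitted 0.33 ± 0.58 gives no direction. All 5 members were without overlap, 4 lower in Star parent and miR-8815 above a Stylo parent value at the common floor, but so were 89.1% of the 46. The median of the members was −0.38, against −0.25 over the 46.

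In Star CSC against Stylo CSC, 0 of 5 passed while 6.52% of the 46 did. MiR-8904b gave −0.84 ± 0.64, miR-8843 −0.70 ± 0.36, miR-8815 −0.50 ± 0.47, miR-8892 −0.11 ± 0.29 and miR-8824 −0.04 ± 0.16, with limma adjusted p-values between 0.451 and 0.916 and 0 unadjusted p-values under 0.05. The median was −0.50 over the members and 0.05 over the 46. MiR-8843 was the 1 member without overlap, lower in Star CSC (34.8% of the 46 did not overlap). On Stylo CSC replicate 1, however, miR-8843 was not well above background. In unscaled intensity both Star CSC arrays lay between the 2 Stylo CSC arrays. For the difference of the 2 CSC changes, Star minus Stylo, 0 of 5 members and 0% of the 46 passed. Its member values ran from −0.83 ± 0.75 for miR-8815, which includes the unmeasured Stylo parent level, to 0.51 ± 0.47 for miR-8892, with limma adjusted p-values of 0.458 to 0.742 and 0 unadjusted p-values under 0.05.

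**Figure D4:**
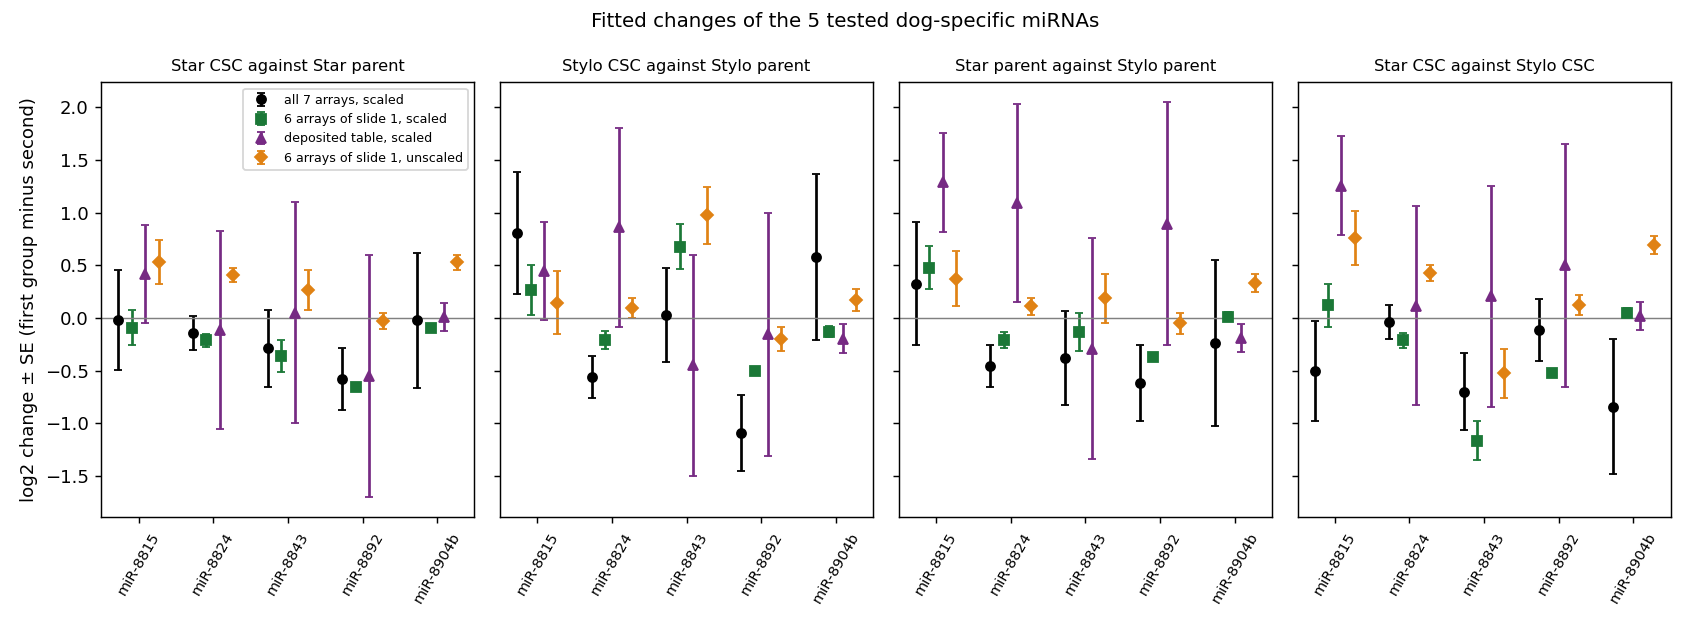
Fitted log2 changes with standard errors of the 5 tested members (first group minus second, 1 panel per comparison) from all 7 arrays, from the 6 arrays of slide 1, from the deposited table, and from slide 1 without scaling. MiR-8892 lies below 0 in all 4 panels with all 7 arrays and on slide 1 after scaling, and between −0.20 and 0.12 without scaling. From the deposited table it lies at −0.55, −0.15, 0.90 and 0.50 in panel order.

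Leaving out the slide 2 array changed the calls. On the 6 arrays of slide 1, 50 miRNAs were tested, 7 of them members (the 5 above, miR-8799g and miR-8833), and the share called over all tested was 52% in Star CSC against Star parent, 34% in Stylo CSC against Stylo parent, 40% in Star parent against Stylo parent and 46% in Star CSC against Stylo CSC. Stylo CSC and Stylo parent are 1 array each here and are assumed to vary like the Star arrays. MiR-8892 then passed in all 4, always lower in the first group: −0.65 ± 0.03 (limma adjusted p = 0.00568), −0.50 ± 0.04 (0.0127), −0.37 ± 0.04 (0.0154) and −0.52 ± 0.04 (0.0111) in that order. Its scaled log2 means on slide 1 were −2.62 in Star CSC, −1.97 in Star parent, −2.10 in Stylo CSC and −1.60 in Stylo parent. The Stylo CSC array that is kept decides the comparisons with that group. No spot of miR-8892 was well above background on Stylo CSC replicate 1, so with that array kept and replicate 2 left out its Stylo CSC level is an upper limit only. The fitted change in Star CSC against Stylo CSC was then 0.29 ± 0.05 (limma adjusted p = 0.0226, 76.6% of 47 miRNAs called), with no bound above 1, so no direction can be given. In Stylo CSC against Stylo parent miR-8892 was at least 1.69-fold lower (fitted −1.49 ± 0.06, limma adjusted p = 0.000836, 68.1% called).

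These differences of miR-8892 moved with the scale factors. Over the 7 arrays, its unscaled log2 change in Star CSC against Star parent was −0.03, the log2 scale factors differed by 0.55, and the scaled change was −0.58. In Star parent against Stylo parent the same 3 values were −0.05, 0.57 and −0.62. Without scaling, the median of the 46 stood at 0.53 in Star CSC against Star parent and at 0.17 in Star parent against Stylo parent, where scaling had put it at 0 and −0.25. MiR-8892 was thus lower relative to the other measured miRNAs and level in intensity. On slide 1 without scaling it gave limma adjusted p-values of 0.80 in Star CSC against Star parent, 0.320 in Stylo CSC against Stylo parent, 0.796 in Star parent against Stylo parent and 0.333 in Star CSC against Stylo CSC.

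On slide 1 the unscaled change of miR-8904b was 0.53 ± 0.07 in Star CSC against Star parent (limma adjusted p = 0.0164) and 0.69 ± 0.09 in Star CSC against Stylo CSC (0.0164). After scaling the same arrays gave −0.09 ± 0.04 (0.120) and 0.05 ± 0.04 (0.393). MiR-8824 likewise gave 0.41 ± 0.06 (0.0218) and 0.43 ± 0.08 (0.0293) without scaling, and −0.21 ± 0.06 (0.0678) and −0.21 ± 0.07 (0.109) with it. The unscaled fit called 56% of the 50 miRNAs in Star CSC against Star parent and 62% in Star CSC against Stylo CSC, nearly all of them higher in Star CSC (54% and 58%).

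The other member calls on slide 1 rest on 1 Stylo CSC array. MiR-8843 was lower in Star CSC than in Stylo CSC by −1.16 ± 0.18 (limma adjusted p = 0.0332), and without scaling by −0.52 ± 0.23 (0.140). MiR-8799g and miR-8833 entered the slide 1 tests only through this same array, the 1 Stylo CSC array on which they were bright, so the filter itself fixed that they stand high there. Their values are given as descriptions. MiR-8799g was at least 1.02-fold higher in Stylo CSC than in Stylo parent and at least 1.36-fold lower in Star CSC than in Stylo CSC. All its other slide 1 arrays stood at the common floor and show no spread, so that limma called it in both comparisons and in the difference of the CSC changes (40% of the 50 called there), and all 3 calls restate 1 value. MiR-8833 was at least 1.69-fold higher in Stylo CSC than in Stylo parent.

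The deposited table gave no call for a member. From it 56 miRNAs were tested, 9 of them members (miR-8794, miR-8803, miR-8833 and miR-8903 besides the 5). With limma, 0 members passed in any of the 5 comparisons, where 35.7%, 30.4%, 32.1%, 19.6% and 33.9% of the 56 were called, and 0, 0, 1, 1 and 0 members had an unadjusted p under 0.05. MiR-8892 had no detected value in the Stylo CSC replicate 1 and Stylo parent replicate 2 columns. Its changes were −0.55 ± 1.15 in Star CSC against Star parent and −0.15 ± 1.15 in Stylo CSC against Stylo parent. They had the opposite sign in Star parent against Stylo parent (0.90 ± 1.15) and in Star CSC against Stylo CSC (0.50 ± 1.15). MiR-8824 had none in the second of these columns. Among the 9 members the smallest errors were those of miR-8904b, which gave 0.01 ± 0.14 in Star CSC against Star parent (95% interval −0.34 to 0.36), −0.20 ± 0.14 in Stylo CSC against Stylo parent, −0.19 ± 0.14 in Star parent against Stylo parent and 0.02 ± 0.14 in Star CSC against Stylo CSC.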

How the data were processed

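The deposited spot intensities of 1-colour canine miRNA arrays were background-subtracted by Agilent Feature Extraction 11.5.1.1, per the file headers. The deposited value table holds log2 values. Setting it against the scanner files showed log2 totals with 1 shift per array and each miRNA centred on its median, so the direction is known. What set the shifts is not given in the sources used here. An undetected total is 0.1. The column medians were −0.94, −0.63, 0.01, −0.12, 6.15, −0.01, 0.29 and 6.15 (replicates 1 and 2 of Star CSC, of Star parent, of Stylo CSC and of Stylo parent in turn).

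Spots of a probe without outlier flags were averaged, and probes of a miRNA summed. Arrays were scaled to the 75th percentile of the 22 probes that all arrays measured well above background (1 of them a probe of miR-8904b), floored at a common scaled signal of 0.0822 (log2 −3.61) and log2-transformed. Groups were compared in 1 limma 3.58.1 fit (R 4.3.3), two-sided, with a threshold of 0.05 on the Benjamini-Hochberg adjusted p. The fit was tested on simulated data with 1 even spread, no floor and no deviating array. The arrays here differ in all of these, so that test does not cover them. The number of arrays limits the precision. Deposited totals were turned back into log2 totals and scaled alike.

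The members, lists and tests were chosen with earlier results of these data known. Every member well above background on an array was named, with those the software or the table detected, the 3 highest and 3 lowest of the others, and any called under an alternative. Normexp used the median spot signal, since the files hold no mean signal. RefSeq (assembly UU_Cfam_GSD_1.0) gave names and neighbours only, since the array was designed on another build. No mature sequence was used. Alternatives covered scaling, background correction, probe summary, floor, filter, slide, replicate number, value source and leaving out each array. Figures were drawn with matplotlib 3.10.9 in Python 3.11.15.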

Additional observations from a re-analysis of the deposited data

How the results depend on the processing

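That no member was called over all 7 arrays depended on keeping both Stylo CSC arrays. Without Stylo CSC replicate 1, alone on slide 2, the members called numbered 1 in Star CSC against Star parent, 2 in Stylo CSC against Stylo parent, 1 in Star parent against Stylo parent, 3 in Star CSC against Stylo CSC and 1 in the difference of the CSC changes. MiR-8799g is counted in both comparisons with Stylo CSC and in the difference. Without Stylo CSC replicate 2 they numbered 1, 5, 1, 4 and 4 (66%, 68.1%, 68.1%, 76.6% and 70.2% of all tested miRNAs called), with miR-8875 in the counts of 5 and 4. Over leaving out each array in turn the 5 counts ranged from 0 to 1, 0 to 5, 0 to 1, 0 to 4 and 0 to 4. MiR-8799g and miR-8875 were each tested only because of the 1 Stylo CSC array on which they were bright, so their calls were fixed by the filter. Without Stylo CSC replicate 2, miR-8904b was called higher in Stylo CSC than in Stylo parent by 1.48. The other called members lack a measured level in 1 of these groups and have only bounds: at least 1.88-fold higher (miR-8815), 1.22-fold higher (miR-8875), 1.69-fold lower (miR-8892) and 1.65-fold lower (miR-8824). With the slide as a block, which removes Stylo CSC replicate 1 from the contrasts, the counts were 1, 1, 1, 2 and 0 (67.4%, 45.7%, 69.6%, 56.5% and 65.2% of all tested). The arrays of the compared groups alone gave 1 in Star CSC against Star parent and 1 in Star parent against Stylo parent (miR-8892 in both, with 67.4% and 60.9% of all tested).

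A lower bar for testing let in dim members. With no filter 3 were called (miR-8870, miR-8898 and miR-8903), and with the software's detection flag as filter 2 (miR-8816 and miR-8903), each time in Stylo CSC against Stylo parent, in Star parent against Stylo parent and in the difference (1.32% of all tested in each with no filter, and 6.9%, 8.62% and 8.62% with the flag). All 4 were at the common floor on most arrays, so the no-filter calls are set by arrays with no spread. The same holds for the calls of miR-8903 with the flag, since it was at the floor on every array but Stylo parent. Members on at least 1 array numbered 19 by any spot well above background, 18 by the software's flag and 17 in the deposited table.

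Signs turned mainly with the scaling and the value source. Of the 20 member changes under all alternatives, 409 values were of the same sign and side of the threshold, 91 turned sign and 20 passed the threshold in the same direction. The 409 do not measure stability, since many could not turn. Leaving out 1 of the identical Stylo parent arrays repeats the main fit. Changes of filter, replicate blocks and fits of the compared groups alone leave the log2 changes as they were. Of the 20 changes, 13 turned with the deposited table scaled alike, 12 with no scaling and 10 with scaling over all probes, and both scaling changes move all miRNAs of an array alike above the floor. Scaling over all probes turned Star CSC against Star parent to 0.77 (miR-8815), 0.64 (miR-8824), 0.50 (miR-8843), 0.21 (miR-8892) and 0.77 (miR-8904b), Stylo CSC against Stylo parent to −0.46 (miR-8843), and Star CSC against Stylo CSC to 0.34 (miR-8815), 0.80 (miR-8824), 0.11 (miR-8843) and 0.40 (miR-8892). It put the median of the 46 at 0.76, −0.75 and 0.75 in these 3. No scaling gave 0.53 (miR-8815), 0.41 (miR-8824), 0.27 (miR-8843) and 0.53 (miR-8904b) in Star CSC against Star parent, 0.11 (miR-8824), 0.19 (miR-8843) and 0.33 (miR-8904b) in Star parent against Stylo parent, and 0.40 (miR-8815), 0.86 (miR-8824), 0.20 (miR-8843), 0.50 (miR-8892) and 0.059 (miR-8904b) in Star CSC against Stylo CSC. Software totals gave 0.80 (miR-8815), 0.36 (miR-8824), 0.52 (miR-8843) and 0.48 (miR-8904b) in Star CSC against Star parent, and 0.32 (miR-8824) and 0.47 (miR-8892) in Star CSC against Stylo CSC. Quantile normalization gave 0.016 (miR-8815) in Star CSC against Star parent, 0.049 (miR-8843) and 0.055 (miR-8904b) in Star parent against Stylo parent, and 0.035 (miR-8892) in Star CSC against Stylo CSC. Normexp gave −0.0081 (miR-8815) and −0.14 (miR-8843) in Stylo CSC against Stylo parent and −0.28 (miR-8815) in Star parent against Stylo parent. The mean of log2 probe values gave 0.018 (miR-8904b) in Star CSC against Star parent. The slide block gave −0.32 (miR-8904b) in Stylo CSC against Stylo parent, and 0.12 (miR-8815) and 0.058 (miR-8904b) in Star CSC against Stylo CSC.

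The deposited table gave 0.42 (miR-8815), 0.051 (miR-8843) and 0.0085 (miR-8904b) in Star CSC against Star parent, 0.86 (miR-8824), −0.45 (miR-8843) and −0.20 (miR-8904b) in Stylo CSC against Stylo parent, 1.09 (miR-8824) and 0.90 (miR-8892) in Star parent against Stylo parent, and 1.26 (miR-8815), 0.12 (miR-8824), 0.21 (miR-8843), 0.50 (miR-8892) and 0.017 (miR-8904b) in Star CSC against Stylo CSC. Among 2 alternatives chosen after seeing the data, that table without scaling called 1 member in Star CSC against Star parent and 2 in Star CSC against Stylo CSC (35.7% and 55.4% of all tested). Its turned values were 0.94 (miR-8815), 0.41 (miR-8824), 0.57 (miR-8843) and 0.53 (miR-8904b) in the first, 0.73 (miR-8824), −0.17 (miR-8843) and −0.099 (miR-8904b) in Stylo CSC against Stylo parent, 1.20 (miR-8824), 0.041 (miR-8843), 1.00 (miR-8892) and 0.14 (miR-8904b) in Star parent against Stylo parent, and 1.83 (miR-8815), 0.87 (miR-8824), 0.78 (miR-8843), 1.08 (miR-8892) and 0.77 (miR-8904b) in Star CSC against Stylo CSC. Slide 1 without scaling called 2, 1, 0, 3 and 1 members (56%, 10%, 10%, 62% and 34% of all tested). It turned 0.53 (miR-8815), 0.41 (miR-8824), 0.27 (miR-8843) and 0.53 (miR-8904b) in Star CSC against Star parent, 0.094 (miR-8824) in Stylo CSC against Stylo parent, 0.11 (miR-8824), 0.19 (miR-8843) and 0.33 (miR-8904b) in Star parent against Stylo parent, and 0.76 (miR-8815), 0.43 (miR-8824), 0.12 (miR-8892) and 0.69 (miR-8904b) in Star CSC against Stylo CSC. Beyond that common shift, the cause of these turns was not tested.

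Leaving out 1 array moved Star CSC against Star parent between −0.20 and 0.15 for miR-8815 and between −0.11 and 0.063 for miR-8904b. It moved Stylo CSC against Stylo parent between −0.43 and 0.67 for miR-8843 and between −0.13 and 1.48 for miR-8904b, and Star parent against Stylo parent between −0.32 and 0.013 for miR-8904b. In Star CSC against Stylo CSC the ranges were −1.13 to 0.12 (miR-8815), −0.21 to 0.13 (miR-8824), −0.52 to 0.29 (miR-8892) and −1.74 to 0.051 (miR-8904b). Deviations of same-numbered samples correlated at −0.36 between Star CSC and Star parent. The correlation was −0.052 between Star CSC and Stylo CSC, and −0.030 between Star parent and Stylo CSC. These values cannot decide whether the replicate numbers pair the samples, and those with Stylo CSC include the slide 2 array. With the replicate number as a block, 0 members and 0 of all 46 miRNAs were called in any of the 5 comparisons in limma (4 to 10 of the 46 with an unadjusted p under 0.05), so the count says nothing of the members. It was 0 of 46 also with the Star CSC numbers crossed, a pairing chosen after seeing the data. Most members lie below background on most arrays, which limits all statements to 8 of 137.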
